A study of Drosophila melanogaster with 36 samples.

Results

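Small nucleolar RNAs (snoRNAs) were followed in RNA recovered on anti-GFP beads from heads of flies with and without GFP-tagged ribosomes. The annotation names 257 snoRNAs, and the 114 described here are those with at least 20 counts summed over the 18 pulldown libraries. Members were thus chosen by their summed pulldown count, so the overall level of a member is a description. The differences between groups did not enter that sum as such. The study asked which transcripts are bound to ribosomes in severed olfactory projections that are kept from degenerating by over-expression of dNmnat, an NAD+ synthesising enzyme. Heads of 3 genotypes were taken uninjured or 7 days after ablation of the antennae and maxillary palps (7 days post axotomy, 7 dpa), with 300 animals per genotype and condition. Each of the 6 combinations was sequenced as poly-A purified input and as GFP-Trap pulldown without poly-A purification, in 3 libraries each, and neither kind was depleted of rRNA.

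Background animals were w; orco-Gal4/+, without any tagged ribosomal protein. Wild-type animals were w; orco-Gal4/+ with the tagged ribosomal protein as 5xUAS-GFP::RpL10Ab/+. Animals labelled dnmnatOE carried 5xUAS-dnmnat opposite orco-Gal4 in a w background, with the same 5xUAS-GFP::RpL10Ab/+. All 3 genotypes thus carried orco-Gal4, a driver of olfactory receptor neurons, and only the latter pair carried the tag. The ablation removes the cell bodies of these neurons, while their severed axons lie within the brain. According to the labels, the 3 libraries of a group are technical replicates of a pool of animals. The methods of the study speak of biological replication in general terms and do not name these libraries. P-values are therefore read as measures of the spread between libraries only.

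snoRNAs are short structured RNAs without a poly-A tail that reside mainly in the nucleolus, where ribosomal subunits are assembled. H/ACA snoRNAs guide the conversion of uridine to pseudouridine in rRNA and C/D snoRNAs guide ribose methylation, each within a particle of core proteins that includes the pseudouridine synthase Nop60B or the methyltransferase Fib. Most fly snoRNAs are cut out of introns of host genes, many of which code for ribosomal proteins. A name such as Psi28S-291 gives the modification and the guided position in the 28S rRNA.

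Pulldown libraries held between 644358 and 2057290 counts on genes, and input libraries between 6628630 and 22329300. Read pairs set aside as ambiguous made up 48.5% to 60.3% of the recorded pairs in pulldowns and 1.92% to 3.21% in inputs, and how snoRNA reads divide between these classes was not tested. Transcripts of Nmnat, the over-expressed gene, were not higher in libraries labelled dnmnatOE: inputs of all groups lay between 17.2 and 30.2 CPM, and the pulldown difference from wild type was −0.99 (log2, adjusted p = 0.62) in uninjured and 1.03 (adjusted p = 0.83) in 7 dpa animals by edgeR's quasi-likelihood test, adjusted after Benjamini-Hochberg. Markers of olfactory neurons were scarce in pulldowns, with a summed level of 7.10 to 54.9 CPM over 11 genes in uninjured wild type and 6 of the 11 at 0, against 6.53 to 12.5 CPM in uninjured background. The 8 photoreceptor markers summed to 17716 to 18869 CPM in the same wild-type pulldowns.

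The snoRNAs found in pulldowns were mostly of the H/ACA kind, and few had a C/D name. By name, 115 annotated snoRNAs are H/ACA, and 92 of them (80.0%) were members. C/D names are as frequent in the annotation, with 112, but only 3 of them (2.68%) reached 20 counts and 99 had no count in any pulldown. A further 30 have names that give no class, mostly that of the host gene, and 19 of these were members. H/ACA snoRNAs carried 77.3% of the 923373 snoRNA counts, those of unstated class 22.7% and C/D snoRNAs 0.0207%.

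Annotated length moved with these classes. The median length was 140 nucleotides for H/ACA and 79.5 for C/D names. Of 103 snoRNAs under 100 nucleotides 2 were members, and of 14 from 100 to under 130 nucleotides 1 was. From 130 to under 140 nucleotides 33 of 47 were members, from 140 to under 150 nucleotides 43 of 54, and from 150 to under 170 nucleotides 28 of 29. The 10 snoRNAs of 170 nucleotides or more held 58.7% of all snoRNA counts. Among snoRNAs of at least 140 nucleotides 1 of 8 with a C/D name was a member, and 77 of 85 others were. Under 100 nucleotides 2 of 95 with a C/D name and 0 of 8 others were members. From 140 nucleotides up members were thus fewer among C/D names at like length too, over only 8 such snoRNAs.

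**Figure D1:**
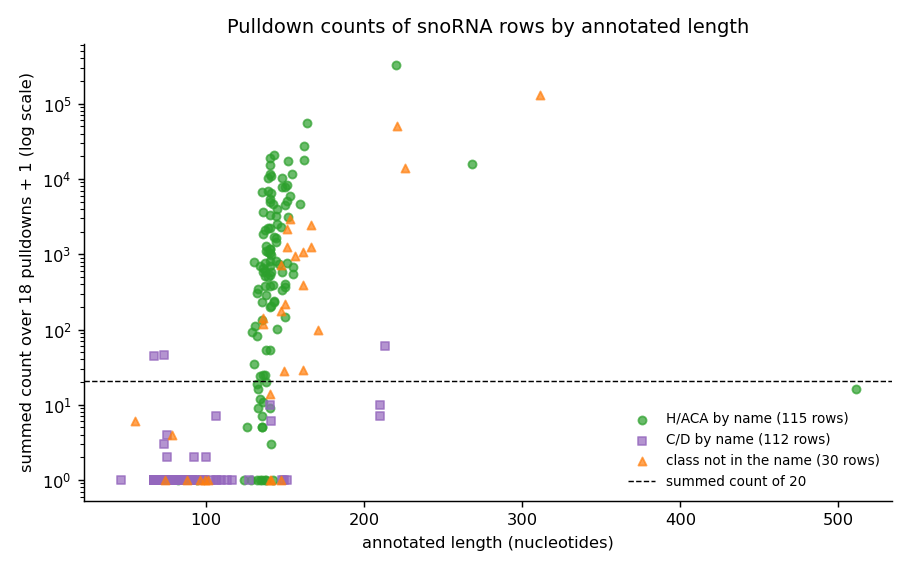
Summed count over the 18 pulldowns plus 1 (log axis) against annotated length in nucleotides for the 257 annotated snoRNAs, coloured by the class in the name, with the count of 20 as a dashed line. C/D snoRNAs, mostly below 100 nucleotides, lie at or near 0 counts, and most H/ACA snoRNAs, around 140 nucleotides, lie above the line.

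The 3 C/D members were close to the limit of detection. U3:9B, a copy of the U3 snoRNA that acts in cleavage of the pre-rRNA rather than in its modification, had 60 counts, of which 14, 6 and 11 came from the 7 dpa libraries labelled dnmnatOE. Its copies U3:54Ab and U3:54Aa had 9 and 6 counts and were no members. Me28S-A1322, in an intron of the translation elongation factor gene eEF1alpha1, had 45 counts, and Or-CD10, in RpL7A, had 43, of which 18 fell in a single wild-type library. The 15 other snoRNAs with U or snR names (U14, U27, U29, U31, U49, U76 and snR38), all of at most 88 nucleotides, had no pulldown count, and a sum of 0 allows up to 3 counts over all pulldowns.

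At the threshold itself, Psi18S-525a was just inside with 23 counts and Psi18S-841d just outside with 19. An exon of another gene overlapped 2 of the 114 members, in both cases on the opposite strand (Or-aca4 with CG44403, and CG31191-a with asRNA:CR44106). Reads of such pairs can be told apart only where counting used the strand, which is not given in the sources used here. Among the annotated snoRNAs that were no members, 29 overlapped an exon of another gene on either strand and 114 did not. Whether this lowered their counts was not tested.

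A few members dominated. Psi28S-291 alone held 35.72% of the snoRNA counts, the first 2 members 49.9%, the first 10 74.16% and the first 50 96.99%. Levels are given below as CPM, counts scaled to a fixed library size after TMM normalisation, the trimmed mean scaling of edgeR. Between genes they are compared as CPM per kilobase of annotated length. Psi28S-291 (chromosome 3R, 11223571 to 11223790 on the plus strand, in an intron of RpL3) had a mean of 87669 CPM per kb over the 18 pulldowns. Tudor-SN-a (chromosome 3L, 259970 to 260280 on the minus strand, in an intron of Tudor-SN, which codes for a nuclease with a Tudor domain) followed with 24487 CPM per kb.

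Psi28S-3342 (chromosome X, 5524302 to 5524465 on the minus strand), which lies in no host gene, had 19270 CPM per kb. CG32479-b, in the ubiquitin protease gene Usp10, had 13337 CPM per kb, Or-aca4 had 9644 and Psi28S-3436b, in RpL17, had 8426. The 10 members of highest mean CPM, before division by length, further included Psi28S-2622 (7745 CPM per kb, no host), Psi18S-531 (6603, in the non-coding gene CR42491), Psi28S-2648 (6091, in RpL36A) and Psi28S-2566 (3466, in CG3902). Per kb the last of these ranked only 17th, and Psi18S-1854c, with 6384 CPM per kb, ranked 9th. The lowest member, Psi18S-525j, which was named after its value was seen, had 8.94 CPM per kb.

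snoRNAs took up a smaller part of the pulldown in libraries labelled dnmnatOE. In uninjured animals they made up 6.78%, 4.73% and 6.04% of the counts on genes in background, 5.65%, 5.50% and 6.74% in wild type, and 2.04%, 2.75% and 2.84% in dnmnatOE libraries. The dnmnatOE libraries lay below all others, and background and wild type overlapped. The mean of the dnmnatOE libraries was 2.54% ± 0.438 (SD, n = 3), which is 0.426 times the wild-type mean of 5.96% ± 0.675.

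At 7 dpa the share was 5.12%, 5.22% and 4.82% in background, 6.30%, 7.11% and 7.54% in wild type, and 4.53%, 3.96% and 4.78% in libraries labelled dnmnatOE. The groups did not overlap, with wild type highest and dnmnatOE lowest, and the dnmnatOE mean of 4.42% ± 0.421 was 0.633 times the wild-type mean of 6.98% ± 0.634. In single input libraries the share was between 0.000673% and 0.00189%. Other classes of RNA moved beside it: rRNA took 36.7% of the uninjured wild-type and 20.6% of the uninjured dnmnatOE counts, and protein-coding genes took 49.4% and 71.4%. Whether the share of snoRNAs follows these was not tested. These are shares of pulldown RNA, and inputs held too few snoRNA reads to give a level in whole heads. Fewer cells that contain a snoRNA, less of it per cell and less of it recovered on the beads cannot be told apart.

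**Figure D2:**
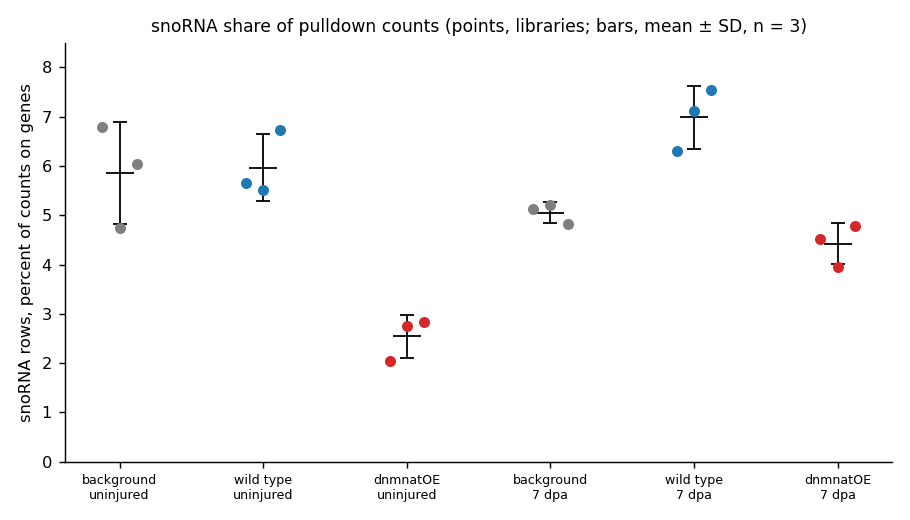
Percent of the counts on genes that fell on snoRNAs in each pulldown library (points), with the mean and SD of the 3 libraries of a group (bars), for the 3 genotypes uninjured and at 7 dpa. The uninjured dnmnatOE libraries, at 2.04% to 2.84%, lie below all others.

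Differences were tested per gene with edgeR's quasi-likelihood test in a single fit of all 18 pulldowns over 7213 genes. A gene is termed called, or said to be higher or lower, where the Benjamini-Hochberg adjusted p over all 7213 genes was at most 0.05 and the log2 fold change was beyond 0.6. Of the 114 members 98 passed the filter on low counts, and the other 16, with 23 to 112 summed counts each, were not tested. The comparisons below share groups: wild type, background and dnmnatOE libraries each serve in several of them, so their values are set side by side and are not independent.

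In uninjured pulldowns snoRNAs were lower in libraries labelled dnmnatOE than in wild type, across members that differ widely in level, host and chromosome. Of the 98 tested members 70 were called lower and 0 higher, where 4.16% of all genes were called lower and 2.48% higher. All 98 had a log2 fold change below 0, from −2.94 to −0.21 with a median of −1.73, while the median of all genes was 0.03. Libraries of the compared groups did not overlap for 91 of the 98. Of the 6996 tested protein-coding genes 558 lay wholly lower and 1023 wholly higher in dnmnatOE libraries. Scaled by library totals without TMM, 53 were called lower. Among all 114 members the mean of the dnmnatOE libraries was below that of wild type for 112, and for 14 of the 16 untested ones.

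Psi28S-291 had 28837, 27013 and 30794 CPM in uninjured wild-type pulldowns and 6847, 8737 and 8129 in those labelled dnmnatOE. The 3 dnmnatOE libraries lay far below the 3 wild-type libraries, and the log2 fold change was −1.87 ± 0.17 (SE, adjusted p = 5.6e-06). Tudor-SN-a had 6802, 7130 and 7302 CPM in wild type and 2593, 2870 and 2771 in dnmnatOE libraries. The groups were again apart and each was tight, with a log2 fold change of −1.37 ± 0.07 (adjusted p = 2.1e-20).

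Psi28S-3342 fell from 3968, 4001 and 4412 CPM in wild type to 1030, 1154 and 1246 in dnmnatOE libraries, or −1.85 ± 0.11 on the log2 scale (adjusted p = 1.2e-19). Psi28S-3436b had 1387, 1471 and 1730 CPM against 388, 419 and 430 (−1.89 ± 0.12, adjusted p = 5e-18). Among the 10 members of highest mean level the change ran from −1.89 for Psi28S-3436b to −1.37 for Tudor-SN-a and Psi28S-2648, and all 10 were called. Psi18S-1820, which lies in an intron of Nop60B, the pseudouridine synthase that works with H/ACA snoRNAs, had 803, 889 and 958 CPM in wild type and 193, 229 and 243 in dnmnatOE libraries (−1.99 ± 0.16, adjusted p = 6.7e-14).

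The largest called differences were mostly those of members with few counts. Psi18S-1347b, in the poly(A)-binding protein gene pAbp, had 20, 13 and 8 counts in wild type and 7, 1 and 7 in dnmnatOE libraries, with a difference of −2.94 ± 0.93 on the log2 scale (adjusted p = 0.042). This call was lost in 12 of the 18 fits made without 1 library. Psi18S-301, which has no host, had 102, 111 and 124 CPM against 19.7, 18.8 and 15.3 (−2.64 ± 0.40, adjusted p = 1.9e-06). The next in size among the called members were Psi18S-525k (−2.34), Psi28S-2149 (−2.32), Psi18S-1347a (−2.21), Psi18S-1377b (−2.17), Psi18S-1377a (−2.10) and Psi28S-1060 (−2.08). Psi28S-2149, Psi18S-1377b and Psi18S-1377a share the host RpS7. The calls of Psi18S-525k and Psi18S-1347a ended in 7 and 14 of the 18 fits.

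Members of high level moved by much the same amount. The 17 tested members of at least 500 CPM were all called lower, within −1.99 to −1.37 and with an SD of 0.19 between members. Of the 41 members of 50 to 500 CPM 40 were called lower (SD 0.30), and of the 40 members under 50 CPM 13 were (SD 0.59). The medians of these 3 classes were −1.78, −1.74 and −1.70. By class of name, 61 of 82 tested H/ACA members and 9 of 16 of unstated class were called lower, with medians of −1.74 and −1.60.

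**Figure D3:**
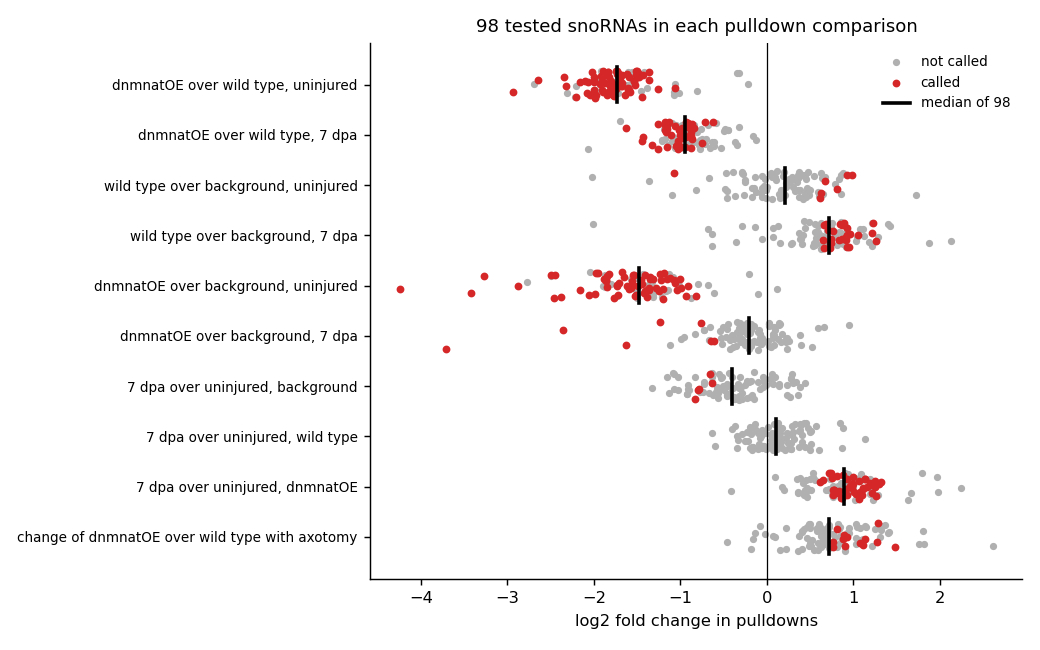
Log2 fold change of each of the 98 tested snoRNAs (points) in the 10 pulldown comparisons, called members in red and the median of the 98 as a black bar. In dnmnatOE over wild type all points lie below 0 uninjured and at 7 dpa, with medians of −1.73 and −0.95, and in 7 dpa over uninjured they move upward in dnmnatOE libraries (median 0.89).

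At 7 dpa snoRNAs were again lower in libraries labelled dnmnatOE than in wild type, by less. Here 45 of the 98 tested members were called lower and 0 higher, with 1.37% of all genes called lower and 1.23% higher. All 98 values were below 0, the median was −0.95 against 0.00 for all genes, and the groups did not overlap for 86. Among the 6996 tested protein-coding genes 574 lay wholly lower and 794 wholly higher in dnmnatOE libraries. Without wild-type library 2 of 7 dpa 26 members were called, and with library totals in place of TMM 16 were. Of all 114 members 110 had a lower mean in dnmnatOE libraries.

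Psi28S-291 had 25730, 32875 and 32628 CPM in wild type at 7 dpa and 13284, 11361 and 15869 in libraries labelled dnmnatOE. Both sets of values were apart, with a log2 fold change of −1.17 ± 0.17 (adjusted p = 0.00086). CG32479-b had 4011, 5419 and 5384 CPM against 2201, 1817 and 2550 (−1.17 ± 0.13, adjusted p = 1.5e-07). Psi28S-3342 differed least among the 10 members of highest mean level, with 3160, 4248 and 3610 CPM against 2881, 2599 and 3086. Its dnmnatOE libraries were all below those of wild type, but the log2 fold change of −0.36 ± 0.10 (adjusted p = 0.033) did not reach 0.6 and it was not called.

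The largest called differences at 7 dpa were those of Psi18S-996, in Tudor-SN (−1.63), Psi28S-3327b, in RpS4 (−1.44), Psi18S-301 (−1.43), Psi28S-2179, in RpL22 (−1.33), Psi28S-1060, in RpL17 (−1.26), a snoRNA of chromosome arm 2R that is named by its position only (−1.26), Psi18S-1820 (−1.18) and CG32479-b (−1.17). Psi28S-1060 had 360, 498 and 326 CPM in wild type and 177, 136 and 180 in dnmnatOE libraries. Psi28S-2179 had 222, 265 and 220 CPM against 104, 74.3 and 101. In both the groups were well apart. Psi18S-996 had 66.6, 107 and 72.5 CPM against 25.2, 24.8 and 29.3. Its call ended in 7 of the 18 fits that left out a library, that of the snoRNA named by position in 9, that of Psi28S-3327b in 5 and that of Psi18S-301 in 4.

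Pulldowns from animals without the tag held snoRNAs too, at a mean share of 5.85% uninjured and 5.05% at 7 dpa. Background lysates hold no tagged ribosome for the beads to bind. In uninjured animals 6 of the 98 tested members were called higher and 1 lower in wild type than in background, with 1.54% and 1.47% of all genes called in these directions. The median was 0.22, with 66 members above and 32 below 0.

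The 6 members called higher in uninjured wild type were Psi28S-2562 in RpS20 (0.99), Psi28S-3327c in RpS4 (0.93), Psi28S-2626 in RpS7 (0.82), Psi28S-291 (0.67), Or-aca4 (0.63) and Psi28S-3378, in the chromatin remodeller gene dom (0.61). Psi28S-2562 had 382, 201 and 320 CPM in background and 628, 476 and 690 in wild type, without overlap (0.99 ± 0.20, adjusted p = 0.0014). Psi28S-291 had 21057, 13685 and 19584 CPM in background, all below the 3 wild-type libraries. Its adjusted p was 0.044, and the call ended in 16 of the 18 fits that left out a library. Those of Or-aca4 and Psi28S-3378 each ended in 8 of the 18.

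Uninjured wild-type libraries lay wholly below background for 6 of the 98 tested members, and for 652 of the 6996 tested protein-coding genes. Of these 6 members only Tudor-SN-a was called lower. In uninjured background it had 15052, 15126 and 14650 CPM, more than the 6802, 7130 and 7302 CPM of wild type, and the log2 fold change was −1.08 ± 0.07 (adjusted p = 3.4e-16). The values within each group differed by little, and the groups were far apart. The host gene Tudor-SN had 107, 118 and 104 CPM in background and 118, 172 and 135 in wild type, a difference of 0.37 ± 0.26 (adjusted p = 0.54).

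Set against the other snoRNAs, Tudor-SN-a made up 23.98% of the snoRNA counts in uninjured background, 9.96% in wild type and 12.97% in libraries labelled dnmnatOE, and 18.7%, 9.78% and 10.6% at 7 dpa. Psi28S-291 made up 28.4%, 40.6% and 37.2% uninjured, and 33.3%, 39.7% and 35.1% at 7 dpa. The ratio of Psi28S-291 to Tudor-SN-a counts, which does not depend on the scaling of libraries, was 1.21 in uninjured background, 4.08 in wild type and 2.87 in dnmnatOE libraries. At 7 dpa it was 1.79, 4.09 and 3.34. The share of Tudor-SN-a did not overlap between background and wild type at either time (exact permutation test, two-sided, p = 0.1 at each, the smallest that 3 against 3 libraries allow).

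At 7 dpa more members stood above background. Wild type was called higher for 26 of the 98 and lower for 0, with 2.22% of all genes higher and 0.832% lower. The median was 0.72, with 90 members above 0, and of all 114 members 101 had a higher mean. The count rested on a pair of libraries: without wild-type library 2 of 7 dpa 8 members were called, and without background library 3 of 7 dpa 12 were.

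The largest called differences were those of Psi28S-3405d, in the hnRNP gene Hrb98DE (1.26), Or-aca5, in the non-coding host Uhg4 (1.23), Psi28S-2626 (1.21), Or-aca4 (1.06), Psi18S-920, in RpL10Ab (0.96), Psi18S-1086, in the splicing factor gene Sf3b3 (0.95), and Psi28S-1175a in RpS16 and Psi28S-2179 in RpL22 (0.93 each). Or-aca5 had 440, 511 and 394 CPM in background and 810, 1298 and 1034 in wild type. Psi28S-2626 had 159, 218 and 167 CPM against 360, 499 and 401. In both the lowest wild-type library was above the highest of background.

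Libraries labelled dnmnatOE were below background in uninjured animals. Of the 98 tested members 65 were called lower and 0 higher (3.41% and 2.14% of all genes), with a median of −1.47. Tudor-SN-a, with 2593 to 2870 CPM in dnmnatOE libraries, was lower by −2.44 ± 0.08 on the log2 scale (adjusted p = 1.1e-30). Larger called differences were found for Psi18S-1397 (−4.24), Psi28S-2149 (−3.42), Psi18S-1389b (−3.27), Psi18S-1347b (−2.88), Psi18S-1347a (−2.49) and Psi18S-1377c (−2.47), and Psi28S-3436a followed (−2.38). The calls of Psi18S-1347b and Psi18S-1347a ended in 14 and 3 of the 18 fits that left out a library.

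Psi18S-1397, in CG10576, was a low member whose counts were mostly in background. It had 43, 14 and 16 counts in uninjured background, 8, 2 and 2 in wild type and 1, 2 and 3 in dnmnatOE libraries, and 34, 28 and 19, then 4, 8 and 9, then 3, 3 and 3 counts at 7 dpa. Background was above both tagged genotypes at each time, in CPM as well as in counts. No library of the tagged genotypes held more than 9 of its counts, so it passed the filter on low counts only through background, the group in which it was high. Its difference from background is therefore given as a description, with no weight on its call. Psi28S-2149 showed a like order in uninjured animals, with 125, 65.6 and 108 CPM in background, 44.5, 59.7 and 35.5 in wild type and 8.04, 9.84 and 9.90 in dnmnatOE libraries.

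At 7 dpa fewer members differed between libraries labelled dnmnatOE and background. Here 7 of the 98 tested members were called lower and 0 higher, with 2.19% and 2.5% of all genes, and the median was −0.20, or 0.02 without TMM. The 7 were Psi18S-1397 (−3.71), Psi18S-1389b (−2.36), Psi28S-2149 (−1.63), Tudor-SN-a (−1.23), Psi28S-2566 (−0.77), Psi28S-3436a (−0.64) and CG32479-b (−0.61). The calls of Psi18S-1397, Psi28S-2149, Psi18S-1389b and Psi28S-3436a ended in 5, 4, 3 and 3 of the 18 fits without a library. Leaving out single libraries gave 2 to 8 such calls, with 3 without background library 2, and 4, 2 and 4 without dnmnatOE libraries 1, 2 and 3. Psi28S-291, with 16384, 17695 and 16659 CPM in background and 11361 to 15869 in dnmnatOE libraries, did not overlap but was not called (−0.32 ± 0.16, adjusted p = 0.40).

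**Figure D4:**
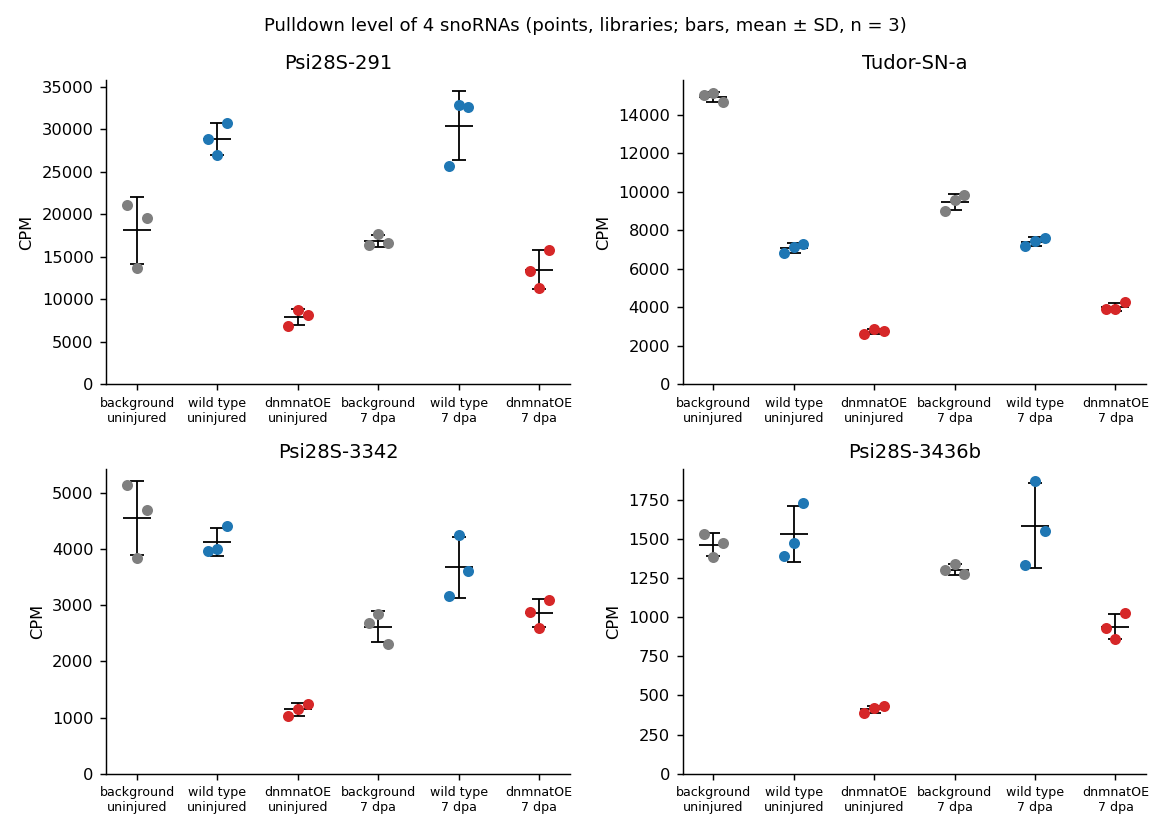
Level in CPM of Psi28S-291, Tudor-SN-a, Psi28S-3342 and Psi28S-3436b in each pulldown library (points), with mean and SD of 3 libraries (bars), for the 3 genotypes uninjured and at 7 dpa. Tudor-SN-a is highest in uninjured background, at 14650 to 15126 CPM, while Psi28S-291 is highest in wild type, and all 4 are lowest in uninjured dnmnatOE libraries.

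After axotomy snoRNAs were higher in libraries labelled dnmnatOE, while 5 members fell in background and none was called in wild type. From uninjured to 7 dpa 42 of the 98 tested members rose and 0 fell in dnmnatOE libraries, beside 7.36% of all genes called higher and 4.49% lower. The median was 0.89, with 97 members above 0, and of all 114 members 108 had a higher mean at 7 dpa. Of the 17 members of at least 500 CPM 16 were called higher, of the 41 of 50 to 500 CPM 26 were, and of the 40 under 50 CPM 0.

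Psi28S-3342 rose from 1030, 1154 and 1246 to 2881, 2599 and 3086 CPM, or 1.32 ± 0.10 on the log2 scale (adjusted p = 1.5e-14). Psi28S-3436b rose from 388, 419 and 430 to 929, 863 and 1027 CPM (1.19 ± 0.12, adjusted p = 1.5e-11). In both, each 7 dpa library was above each uninjured one. Similar increases were called for Psi18S-920 (1.30), Psi28S-3385b, in the translation factor gene kra (1.26), Psi18S-1377a (1.26), Psi28S-2996, in RpL5 (1.25), Psi28S-3436a (1.22) and Psi18S-531 (1.19). Tudor-SN-a, with 3923, 3897 and 4270 CPM at 7 dpa, had a value of 0.55 ± 0.07 (adjusted p = 4.2e-08), which did not reach 0.6.

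In wild type 0 of the 98 tested members were called in either direction by edgeR's quasi-likelihood test, with 3.92% of all genes called higher and 2.3% lower. At an unadjusted p under 0.05 there were 7, beside 1443 of the 6996 tested protein-coding genes, and DESeq2 called 0. The median was 0.10. In background 5 members fell and 0 rose, with 0.943% and 1.64% of all genes, and the median was −0.40. These were Psi28S-1135e, in RpS5a (−0.83), Psi28S-3342 (−0.80), Psi18S-1854b, in RpS5a (−0.78), Tudor-SN-a (−0.66) and Psi28S-3378 (−0.64). The number was 12 without uninjured background library 2, and 3 without uninjured background library 1 or 7 dpa background library 3.

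A change with axotomy in the difference of dnmnatOE from wild type was tested as an interaction. It shares the libraries of both preceding comparisons. For 13 of the 98 tested members the difference moved upward, so that it was smaller at 7 dpa, and for 0 downward, with 1.77% and 1.28% of all genes. The median was 0.72, with 92 members above 0. The largest called change was that of Psi28S-3342 with 1.49 ± 0.15 (adjusted p = 1.9e-10), whose difference went from −1.85 to −0.36. Then came Psi28S-3308, in Sf3b3 (1.29), Psi28S-3436a (1.28), Psi28S-3436b (1.14), Psi28S-3378 (1.11), Psi28S-2562 (1.08), Psi18S-920 (0.93) and Psi18S-1389a (0.91). The calls of Psi28S-2562, Psi18S-920 and Psi18S-1389a ended in 7, 6 and 11 of the 18 fits without a library. Psi28S-291 had 0.70 ± 0.23 (adjusted p = 0.16) and was not called. The count was 6 without TMM, 8 without dnmnatOE library 1 of uninjured animals or without wild-type library 1 or 3 of 7 dpa, and 7 without dnmnatOE library 3 of 7 dpa.

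Markers of other cells moved with the genotype as well, and their part in the snoRNA differences was not tested. Between uninjured wild-type and dnmnatOE pulldowns the 5 muscle markers summed to 1693 to 2049 and 3000 to 3484 CPM, and the 6 glial markers to 942 to 1219 and 1282 to 1454 CPM. At 7 dpa the ranges were 1197 to 1428 and 1267 to 1547 CPM for muscle and 738 to 941 and 602 to 712 CPM for glia. Photoreceptor markers were lower in dnmnatOE libraries, the same direction as that of snoRNAs. In uninjured animals they summed to 16652 to 17144 CPM there, below the wild-type range given above, and at 7 dpa to 10334 to 10867 CPM against 14776 to 15060 CPM in wild type. In background they summed to 22650 to 23585 CPM uninjured and 21501 to 22729 CPM at 7 dpa, above both tagged genotypes. The 7 antennal support markers were higher in uninjured dnmnatOE libraries (469 to 621 CPM against 330.0 to 453 in wild type) and overlapped at 7 dpa, and the 6 fat body markers overlapped at both times. The long RNAs roX1, roX2 and Hsromega were listed as nuclear, but transcripts of the same gene were not told apart. These genes summed to 2436 to 2853 CPM in uninjured wild type and 4018 to 4143 CPM in dnmnatOE libraries. That was the opposite direction to that of snoRNAs. At 7 dpa these genes summed to 1488 to 1591 and 2094 to 2441 CPM.

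Host genes differed between dnmnatOE and wild type by less than the snoRNAs they carry. Of the 114 members 105 lie within a gene on the same strand, in 41 host genes, of which 15 code for ribosomal proteins and hold 41 members. In uninjured animals 13 of the 15 ribosomal protein hosts were lower in dnmnatOE libraries than in wild type, with a median of −0.84. Of the other 26 hosts 1 was higher and 1 lower, with a median of −0.10. Among all genes 2.48% were called higher and 4.16% lower, and the calls among these 26 lie near that share. The snoRNA was lower than its host in 88 of 90 tested pairs of snoRNA and host, by a median of −1.28 on the log2 scale, and members of 1 host are not independent.

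RpL3, which hosts Psi28S-291, differed by −0.90 ± 0.10 (adjusted p = 3e-09) where the snoRNA differed by −1.87. RpL10Ab, the gene of the protein that is also carried as a tagged transgene, hosts Psi18S-920. It differed by −1.01 ± 0.14 (adjusted p = 5.8e-07) and its snoRNA by −1.84. Reads of the transgene may be counted on this gene too, which was not tested. Usp10, host of CG32479-b, differed by 0.37 ± 0.27 (adjusted p = 0.51) and its snoRNA by −1.78. Msp300, which codes for a nesprin of muscle and nucleus, went the other way from its snoRNA. It rose from 2696, 1767 and 2400 CPM in wild type to 7370, 7403 and 7406 in dnmnatOE libraries (1.69 ± 0.10, adjusted p = 1.2e-19), while Psi18S-525k had 37.9, 16.6 and 30.2 CPM against 5.36, 6.26 and 4.95.

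At 7 dpa 0 of the 15 ribosomal protein hosts were called between dnmnatOE and wild type by edgeR's quasi-likelihood test, and 14 lay below 0 with a median of −0.20. At an unadjusted p under 0.05 there were 6, beside 694 of the 6996 tested protein-coding genes. RpL3 alone passed the adjusted p (0.023) with a value of −0.38. Of the other hosts Msp300 (1.22) and dom (0.61) were higher and 0 lower, where 1.23% of all genes were called higher and 1.37% lower. The snoRNA was below its host in 90 of 90 pairs, by a median of −0.85. In dnmnatOE libraries 13 of the 15 ribosomal protein hosts rose from uninjured to 7 dpa, with a median of 1.13, and 3 of the other 26 rose and 3 fell, with a median of 0.00. Among all genes 7.36% were called higher and 4.49% lower in this comparison. Here the snoRNA was below its host in 37 and above it in 53 of the 90 pairs.

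**Figure D5:**
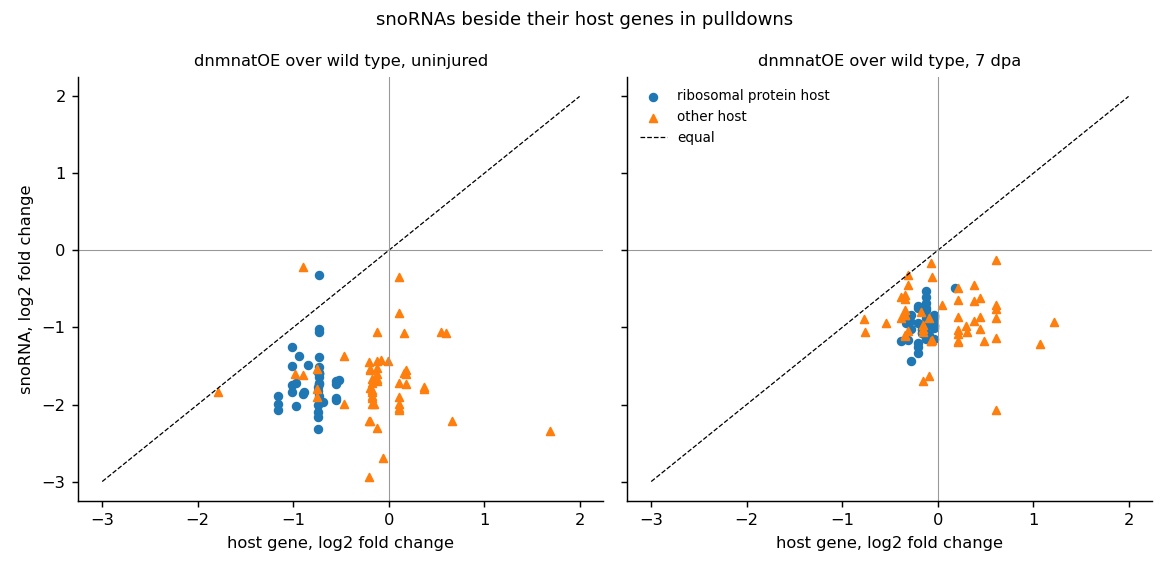
Log2 fold change of each tested snoRNA against that of its host gene in pulldowns, dnmnatOE over wild type, uninjured (left) and at 7 dpa (right), with ribosomal protein hosts as blue circles, other hosts as orange triangles and equality as a dashed line. Nearly all points lie below the line, 88 of 90 uninjured and 90 of 90 at 7 dpa.

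snoRNAs from introns of the same host differed widely in level. RpS5a hosts 13 members, of which 12 were tested, and these ran from 90.0 CPM per kb for Psi28S-1135c to 6384 for Psi18S-1854c, a ratio of 70.9. This pair was chosen after its values were seen. Their differences between uninjured dnmnatOE and wild-type pulldowns ran from −1.89 to −0.32. The 7 members in RpS7 spanned a 7.38-fold range of level and changes from −2.32 to −1.58. The 7 in kra spanned 12.99-fold and −1.99 to −1.67, and the 7 in Hrb98DE 19.5-fold and −2.31 to −1.06. The 3 in RpL17 were all called, between −2.08 and −1.89.

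Genes for proteins of the snoRNA particles were not called in pulldowns. Of 23 genes for core, assembly and Cajal body proteins, 17 were tested in pulldowns, and 0 were called in any pulldown comparison by edgeR's quasi-likelihood test. Among all genes 4.16% were called lower and 2.48% higher in uninjured dnmnatOE than in wild type, and 1.37% and 1.23% at 7 dpa. Over 17 genes a count of 0 lies near these shares. Between uninjured dnmnatOE and wild-type pulldowns 2 of the 17 had an unadjusted p under 0.05, and at 7 dpa 0 had. Of the 6996 tested protein-coding genes 1223 and 694 had. Fib, the C/D methyltransferase, had −1.58 ± 0.71 (adjusted p = 0.20) and −1.39 ± 0.69 (adjusted p = 0.46). Nop60B had −0.15 ± 0.69 (adjusted p = 0.95) and 0.48 ± 0.67 (adjusted p = 0.92). Fib had 419 and Nop60B 470 counts over all pulldowns, so these SEs are wide. In inputs 1 of the 23 was lower uninjured and 0 at 7 dpa, with 5 and 2 at an unadjusted p under 0.05. Of all genes 7.54% and 13.3% were called in either direction in these inputs.

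Other short RNAs without a poly-A tail moved in part like snoRNAs. The scaRNAs, which guide modification of spliceosomal RNAs in Cajal bodies, had 6 tested genes, of which 3 were lower in uninjured dnmnatOE than in wild-type pulldowns (median −1.67) and 2 at 7 dpa. Of the 4 tested genes of spliceosomal RNAs 1 was called lower uninjured and 3 at 7 dpa. Among all genes 4.16% and 1.37% were called lower. In uninjured animals U11 had 78.5 to 135 CPM in wild type and 97.9 to 126 in dnmnatOE libraries, and U12 87.9 to 186 and 105 to 143. At 7 dpa the dnmnatOE libraries lay below wild type for both. The scaRNA MeU5-C46 had 4742, 5142 and 5150 CPM in uninjured wild type and 1496, 1671 and 1514 in dnmnatOE libraries. These groups were far apart, with a difference of −1.68 ± 0.09 (adjusted p = 3.5e-20), and of −1.11 ± 0.09 (adjusted p = 1.9e-13) at 7 dpa.

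RNaseP:RNA, the RNA of the enzyme that trims tRNA precursors, was lower in dnmnatOE than in wild-type pulldowns by −1.39 ± 0.06 uninjured and −1.36 ± 0.06 at 7 dpa. RNaseMRP:RNA, which acts on pre-rRNA in the nucleolus, was lower by −1.14 ± 0.07 and −1.37 ± 0.07. For neither did the difference change with axotomy past the threshold (adjusted p = 0.92 and 0.25). The 7SK RNA, a regulator of transcription elongation, was 0.23 ± 0.08 (adjusted p = 0.075) uninjured and −2.01 ± 0.08 (adjusted p = 3.6e-25) at 7 dpa. The same edgeR quasi-likelihood fit and adjustment gave all of these values.

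Inputs held too few snoRNA reads for a like comparison. Between 9 and 23 of the 114 members had any count in an input library, against 108 to 114 in a pulldown, and 8 snoRNAs were tested, 6 of them members. Me28S-A1322 had 1287 counts over the 18 inputs and 45 over the 18 pulldowns. It was the only call in inputs, where 7.54% of all genes were called in either direction uninjured and 13.3% at 7 dpa. In uninjured inputs it had 2.55, 4.30 and 3.35 CPM in wild type and 1.46, 0.230 and 2.29 in dnmnatOE libraries, without overlap (−1.36 ± 0.46, adjusted p = 0.032). At 7 dpa it had 4.46, 2.85 and 5.57 CPM against 10.7, 10.7 and 6.38, also without overlap and in the other direction (1.11 ± 0.43, adjusted p = 0.045). Both calls were lost without single libraries, in 4 of the 18 fits uninjured and 9 of the 18 at 7 dpa. Psi28S-291, with 329826 pulldown counts, had 50 counts in all inputs.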

How the data were processed

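The authors deposited raw counts per gene for 36 libraries, made with Trimmomatic, HISAT2, SAMtools and HTSeq on FlyBase annotation r6.43. Versions, counting mode and strand setting are not given in the sources used here. Names, lengths and positions came from the Ensembl release 115 annotation of the same assembly, which matched 17559 of the 17611 gene identifiers. Summary classes that name no gene, among them the ambiguous pairs whose share the report gives, were left out. Pulldowns (7213 genes) and inputs (10437 genes) were fitted separately in R 4.3.3 with edgeR 4.0.16 (filterByExpr, TMM, robust quasi-likelihood fit, 1 coefficient per group). The biological coefficient of variation was 0.460 and 0.198. Calls needed a log2 fold change beyond 0.6 and a Benjamini-Hochberg adjusted p, over all genes tested, no higher than 0.05. SEs were approximated from the F statistic. The bound of 3 counts given for a sum of 0 covers counting error only.

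Alternatives were DESeq2 1.42.0, RLE scaling, no TMM, no filter, rRNA left out, a replicate term and leaving out each library, and, chosen after seeing the data, scaling on protein-coding genes alone. The deposited counts differed between all libraries of a group (chi-square per gene from 4.04 to 34.3). Equally numbered libraries did not deviate together (correlations of residuals from −0.04 to 0.03 over 45 pairs), so numbers were not used as pairs. The tests were run on simulated counts with a smaller spread between libraries than the fitted one. That run therefore does not give error rates at the spread of these data.

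The members, lists and tests were chosen with earlier results of these data known. Named members are the 10 with the highest mean CPM in pulldowns, up to 8 called members with the largest change in each direction of each comparison, every snoRNA with a U name, and those next to the threshold, with their host genes. H/ACA was read from names in Psi or aca and C/D from names in Me, CD, U or snR.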

Additional observations from a re-analysis of the deposited data

Results flagged for a closer look

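The difference between libraries labelled dnmnatOE and wild type changed with axotomy for 13 of the 98 tested snoRNAs, by the interaction term of edgeR's quasi-likelihood test with p-values adjusted over all genes, and in each of these the difference was smaller at 7 dpa. Among all genes 1.77% were called upward and 1.28% downward. The count of snoRNAs was 6 without TMM and 7 to 17 in fits that left out 1 library. The change was 1.49 on the log2 scale for Psi28S-3342, 1.29 for Psi28S-3308, 1.28 for Psi28S-3436a, 1.14 for Psi28S-3436b, 1.11 for Psi28S-3378, 1.08 for Psi28S-2562, 0.93 for Psi18S-920 and 0.91 for Psi18S-1389a. The last of these has an adjusted p of 0.043, and its call ended in 11 of the 18 fits that left out 1 library.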

How the results depend on the processing

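Without TMM, on library totals alone, the count of called snoRNAs was 16 for dnmnatOE over wild type at 7 dpa, 3 and 15 for wild type over background uninjured and at 7 dpa, 3 for dnmnatOE over background at 7 dpa, 3 for axotomy in background, 1 for axotomy in wild type and 6 for the interaction. For dnmnatOE over wild type in uninjured animals it was 53. This scaling moved the median of all genes to 0.55 uninjured and 0.34 at 7 dpa, and the genes called higher and lower became 931 and 133, against 179 and 300 with TMM, and 316 and 42, against 89 and 99. With no filter 4 members were called for wild type over background, uninjured. With rRNA left out the snoRNA share was 7.81%, 9.39% and 3.18% in uninjured background, wild type and dnmnatOE, and 6.42%, 9.35% and 5.33% at 7 dpa. DESeq2, RLE, rRNA left out and protein-coding scaling kept every count of calls in pulldowns within 1.5 times.

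Leaving out 1 library gave 55 to 69 and 26 to 47 calls for dnmnatOE over wild type uninjured and at 7 dpa, 3 to 9 and 8 to 29 for wild type over background, 52 to 66 and 2 to 8 for dnmnatOE over background, 3 to 12, 0 to 2 and 30 to 43 for axotomy in background, wild type and dnmnatOE, 7 to 17 for the interaction, and 0 to 1 in inputs. For wild type over background in uninjured animals, 3 were called without background library 2 or wild-type library 3, and 4 without uninjured dnmnatOE library 2 or 3, 7 dpa wild-type library 3 or any 7 dpa dnmnatOE library. In inputs 0 were called uninjured without wild-type library 2 or 3 or dnmnatOE library 1 or 2 of that time, and 0 at 7 dpa without uninjured background library 1 or 3, any 7 dpa background library, or library 1 or 2 of 7 dpa wild type or dnmnatOE. For axotomy in wild type 1 was called without uninjured library 3 and 2 without 7 dpa library 1. With a replicate block the counts were 66 and 44 for dnmnatOE over wild type, 6 and 26 for wild type over background, 63 and 7 for dnmnatOE over background, 5, 0 and 41 for axotomy, 12 for the interaction and 1 and 1 in inputs. Of 105 named values none reversed in any alternative, and 31 lost their call without TMM. Pulldown depth limits members under 50 CPM.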

Other observations

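Other short RNAs of the pulldowns were nearly present or absent by genotype. They were chosen after their values were seen. The spliceosomal RNA gene U2:34ABa had 187 to 499 CPM in every background and wild-type pulldown, but 0, 0 and 1 count in uninjured libraries labelled dnmnatOE and 0 in all 3 at 7 dpa. The signal recognition particle RNA gene 7SLRNA:CR32864 had 1 to 6 counts in each background pulldown, while it had 497 to 716 CPM in wild type and 128 to 359 CPM in dnmnatOE libraries. Each has close copies in the annotation between which counting could divide reads, and copies were not compared.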
